A study of Physcomitrium patens with 6 samples.

Results

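The isoprenylcysteine methyltransferase genes of the moss Physcomitrella patens were followed as 3 gene models from 2 loci. Pp1s112_210V6.1 and Pp1s112_210V6.2 are alternative models of the locus that the study names STE14B, a homologue of the Arabidopsis gene AT5G08335. Pp1s111_143V6.2 lies at a second locus and is described as a protein C-terminal S-isoprenylcysteine carboxyl O-methyltransferase, a homologue of AT5G59500. They were chosen by name from the 19265 gene models listed in at least 1 library, and no other model was listed for either locus. The 3 were also the only models, of 12900 with any Gene Ontology (GO) term, that carried the molecular function protein C-terminal carboxyl O-methyltransferase activity. Their tag values were known when they were chosen, so all of their levels and ratios are given as descriptions, without a test.

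Isoprenylcysteine methyltransferases act on proteins that end in a CaaX box, a cysteine followed by aliphatic residues and a last variable residue. A farnesyl or geranylgeranyl group is joined to the cysteine by a protein prenyltransferase, the residues behind it are cut off, and the exposed isoprenylcysteine is then methylated by the enzyme at the endoplasmic reticulum membrane, which makes the end of the protein more hydrophobic. In Arabidopsis the pathway is known for its part in the response to abscisic acid.

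The transcript tags of 6 libraries were counted by digital gene expression profiling, and 3 pooled biological replicates went into each library. There were 4 whole-plant libraries of gametophytes, taken 3, 14 and 24 days after protoplast isolation, as filamentous protonemata that by day 24 bore many buds, the beginnings of leafy shoots, and at 30 days, when they were leafy shoots. A further pair of libraries came from chloronemal and caulonemal cells cut by laser from 14-day-old protonemata, chloronema being the chloroplast-rich filament type and caulonema the faster growing one. All plants were regenerated from protoplasts of the moss without a further treatment named in the labels, and for days 3, 14 and 24 the tissue label reads leafy shoot, whereas the growth protocol and the paper say protonema, as used here. With 1 library per condition there was no replicate library, so no spread between plants could be read and no p-value was computed.

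The libraries held between 1733082 gene tags, in chloronema, and 7027742, at day 14. Day 30 and both captured libraries were shallower than the other whole-plant libraries, with 2281272 gene tags at day 30 and 2557991 in caulonema. Across 9003 models with over 100 tags in a library, day 30 ranked models more like the captured libraries than like the other whole-plant ones, with a Spearman correlation of 0.596 with chloronema and 0.609 with caulonema against 0.368 to 0.401 with days 3, 14 and 24. The part of this in the results below was not tested. Summed tags of 56 photosystem models lay between 8459 and 37490 normalized TPM, so that transcripts of green tissue were present in every library. The study used 2 genes as internal controls. Pp1s40_169V6.1, its control for the 4 days, lay between 656 and 737 normalized TPM on those days and at 357 in chloronema and 494 in caulonema. Pp1s17_377V6.1, its control for the captured cells only, lay at 1144 normalized TPM in chloronema and 678 in caulonema. The TPM printed by the study was nearly the same in these 2 libraries, so TMM scaling set this control apart between them. On the 4 days, for which it was not the control, it lay between 225 and 773.

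A tag is the 21 bases that begin with the CATG cut by the enzyme NlaIII, and the site is numbered from the 3′ end of the gene model. The tags below are those by which the 3 models were counted, and they show why the STE14B models could be told apart. CATG is in capitals and the rest of the tag in lower case.
Pp1s112_210V6.1: CATGgtatttacaggtttttt
Pp1s112_210V6.2: CATGaagtagggatgtattca
Pp1s111_143V6.2: CATGtatgcgagctatatgct

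The STE14B tags both lay at site 1, the CATG nearest to the 3′ end of its own model, and differed from each other at 11 bases. The tag of Pp1s112_210V6.1 had the lowest GC content of the 3, at 28.6%, and ended in a run of 6 T. That of Pp1s112_210V6.2 had 38.1% GC and that of Pp1s111_143V6.2 42.9%. The nearest tag of any other model in the 6 libraries was 4 mismatches away for Pp1s112_210V6.1 and 5 for each of the others, so the allowance of 1 mismatch in the authors' matching did not join them to another listed tag. Each member kept its site and its tag in every library that listed it, whereas 61.2% of the 11530 models listed in all 6 libraries kept 1 site. Pp1s111_143V6.2 was read at site 5, far from the 3′ end in terms of sites. Sites of 5 or beyond were used by 5.21% to 5.86% of listed models at days 3, 14 and 24, and by 3.43% to 3.71% at day 30 and in the captured cells.

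Both STE14B models had their highest level at day 24. Of Pp1s112_210V6.1 there were 83 tags at day 3 and 187 at day 24, none listed at day 30, 7 in chloronema and 29 in caulonema, and at day 14 it gave all but 27 of the 196 STE14B tags. Scaled for library size and composition by trimmed mean of M-values (TMM), here called normalized TPM, the levels were 14.5, 28.9, 32.1 and 0 over the 4 days, 3.99 in chloronema and 9.44 in caulonema. The level was thus higher at days 14 and 24 than at day 3, and the model was not listed at day 30, where a floor of 3 tags allows up to 1.22 normalized TPM. Days 24 and 14 did not differ beyond counting error, nor did day 3 and caulonema, while the other neighbours in the order of levels did. In such bulk samples fewer cells of a type and less RNA per cell cannot be told apart.

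Pp1s112_210V6.2 had another course. It was read 42, 27, 160 and 21 times over the 4 days, 17 times in chloronema and 12 in caulonema, which were 7.36, 4.62, 27.4, 8.55, 9.69 and 3.91 normalized TPM. Day 24 stood above every other library, and no neighbours among the other 5 differed beyond counting error. The exact Poisson 95% interval was 23.4 to 32.0 normalized TPM at day 24, and the highest of the other upper limits was 15.5, in chloronema. Intervals here and below cover counting error only, since copies made by PCR are not independent molecules and the spread between plants is not in them.

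For Pp1s111_143V6.2 the library with most tags was day 14. The counts were 134 tags, 274, 127 and 6 over the 4 days, 15 in chloronema and 31 in caulonema, or 23.5, 46.9, 21.8, 2.44, 8.55 and 10.1 normalized TPM. With TMM scaling, days 3 and 24 were alike within counting error and lay below day 14, and day 30 was lowest. The captured cells did not differ beyond counting error from each other with that scaling. At day 14 the model had more tags than 79.1% of the models listed there, and at day 30 more than 16.2%.

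**Figure D1:**
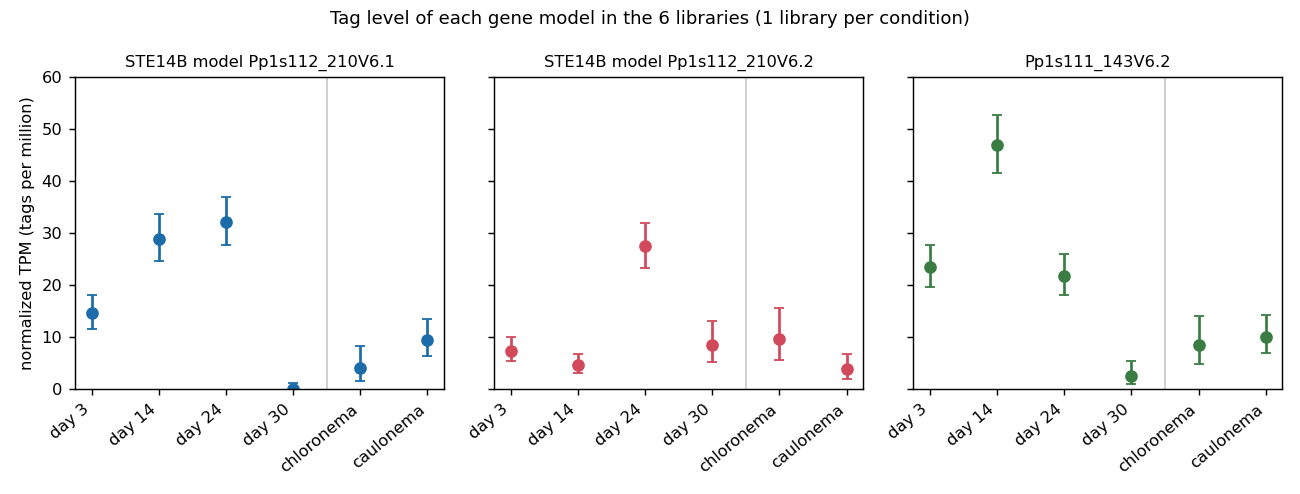
Level of each gene model in normalized TPM (after TMM scaling, linear axis from 0) in the 4 whole-plant libraries and, right of the grey line, the captured cell types. Points are single libraries and bars exact Poisson 95% intervals, with a floor of 3 tags at day 30 for Pp1s112_210V6.1. Pp1s112_210V6.2 reaches 27.4 only at day 24 and is at 9.69 or less elsewhere, and Pp1s111_143V6.2 is highest, at 46.9, at day 14.

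The highest library was thus day 24 for both STE14B models and day 14 for Pp1s111_143V6.2. Over the 9003 models with over 100 tags in a library, 20.6% were highest at day 24, 16.5% at day 14, 19.4% at day 3, 19.7% at day 30 and 13.8% in chloronema, with the rest in caulonema. For Pp1s112_210V6.1 and Pp1s111_143V6.2 every one of the day 30 and captured levels lay below every one of days 3, 14 and 24, which held for 21.7% of those models. Pp1s112_210V6.2 did not show this order, since chloronema and day 30 lay above days 3 and 14 in value, though not beyond counting error for neighbours in the order. Summed over the 3 models the gene family gave 45.4, 80.4 and 81.3 normalized TPM at days 3, 14 and 24, and 10.99, 22.2 and 23.4 at day 30, in chloronema and in caulonema. With TMM scaling the total at days 14 and 24 was alike (intervals 73.3 to 88.0 and 74.1 to 88.9) while the models that made it up were not. Other scalings were not tried for this sum, which adds tags of sites that differ in how often they are read.

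Days were compared in sequence, each ratio being later over earlier. A model counted as called where it had over 100 tags in at least 1 of the 2 libraries and a ratio of over 2-fold, a rule of size with no test. From day 3 to day 14 no member was called, where 40.4% of 7710 models were, 20.1% higher and 20.3% lower. Pp1s112_210V6.1 and Pp1s111_143V6.2 lay just under the limit of 1 on the log2 scale, at 0.992 and 0.998. Their ratios were 1.99 (95% interval 1.52 to 2.62) and 2.00 (1.62 to 2.47), beside a median log2 ratio of 0.07 over all models tested. Pp1s112_210V6.2, with under 100 tags on both days, had a ratio of 0.628 (0.372 to 1.04). Total gene tags, DESeq2 size factors and deposited TPM as scalings all left the 3 uncalled, with log2 ratios of 0.84 to 0.94 for the 2 that were higher at day 14.

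From day 14 to day 24 the members went apart. Pp1s112_210V6.2 was called higher, at 5.94-fold (3.93 to 9.29), and Pp1s111_143V6.2 was called lower, by 2.15-fold (1.74 to 2.68), whereas 49.5% of 7913 models were called, 23.2% higher and 26.4% lower. Pp1s112_210V6.1, at 1.11-fold (0.896 to 1.37), was not called. The step of Pp1s112_210V6.2 was above 2-fold under every scaling tried, with log2 ratios of 2.57 to 2.83, and that of Pp1s111_143V6.2 fell short of 2-fold with total gene tags, at a log2 ratio of -0.85, and relative to the internal control Pp1s40_169V6.1, at -0.96. With both models summed STE14B was 1.77-fold higher at day 24 (1.49 to 2.13) and not called, but it passed 2-fold with total gene tags, at a log2 ratio of 1.09. The comparison shares its day 14 library with the one before it, and a deviation of that library would move both.

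At day 30 all 3 members were called lower than at day 24, as were 39.4% of 7267 models tested, with 23.2% called higher and 62.5% in either direction. Pp1s112_210V6.1, unlisted at day 30, was at least 26.3-fold lower against the floor of 3 tags. Pp1s111_143V6.2 was 8.92-fold lower (3.99 to 24.8) and Pp1s112_210V6.2 3.21-fold lower (2.03 to 5.33). The median log2 ratio of all models tested was -0.48, and it lay between -0.33 and -0.54 under the other scalings, so that most tested models were lower at day 30. All 3 members passed the limit of 100 tags through day 24 alone, the deeper library, and the limit favours models that were higher there. Without that limit, 45.1% of calls were higher at day 30, against 37.0% with it. For Pp1s112_210V6.2 the log2 ratio of -1.68 lay within the middle 50% of models, which ran from -1.95 to 0.88, and those of -3.16 for Pp1s111_143V6.2 and of -4.72, against the floor, for Pp1s112_210V6.1 lay below it. Models read at site 5 or beyond at day 24, as Pp1s111_143V6.2 was, had a median log2 ratio of -0.34 over 244 models, against -0.48 over the 4941 read at site 1.

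The split between the STE14B models needs no scaling, since both were counted in the same library. Pp1s112_210V6.2 gave 33.6% of 125 STE14B tags at day 3 (exact Clopper-Pearson 95% interval 25.4 to 42.6), 13.8% of 196 at day 14 (9.28 to 19.4) and 46.1% of 347 at day 24 (40.8 to 51.5). Its share was thus lowest at day 14, with an interval that met neither of the other two. At day 30 all 21 tags were of this model, which allows a share down to 83.9%. In chloronema it gave 70.8% of 24 tags (48.9 to 87.4) and in caulonema 29.3% of 41 (16.1 to 45.5), and these intervals did not meet.

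At loci with at least 2 listed models, the 2 with the most tags over all libraries were used as a pair. Of these 950 loci, 475 had over 100 tags for the pair at both day 14 and day 24. The median locus moved by 1.88 points in the share of the second model of the pair, and 33 loci, or 6.95%, moved by over 25 points, a limit set after the STE14B values were known. STE14B moved by 32.3 points. From day 3 to day 14, 8 of 480 loci (1.67%) moved by over 25 points, with a median of 1.25, and STE14B moved by 19.8 points towards Pp1s112_210V6.1. At day 30 and in the captured cells STE14B had under 100 tags, below the limit for this count. The models are counted by tags at the 3′ end of each, so the share is of transcripts with one or the other end, and other differences between them were not measured.

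**Figure D2:**
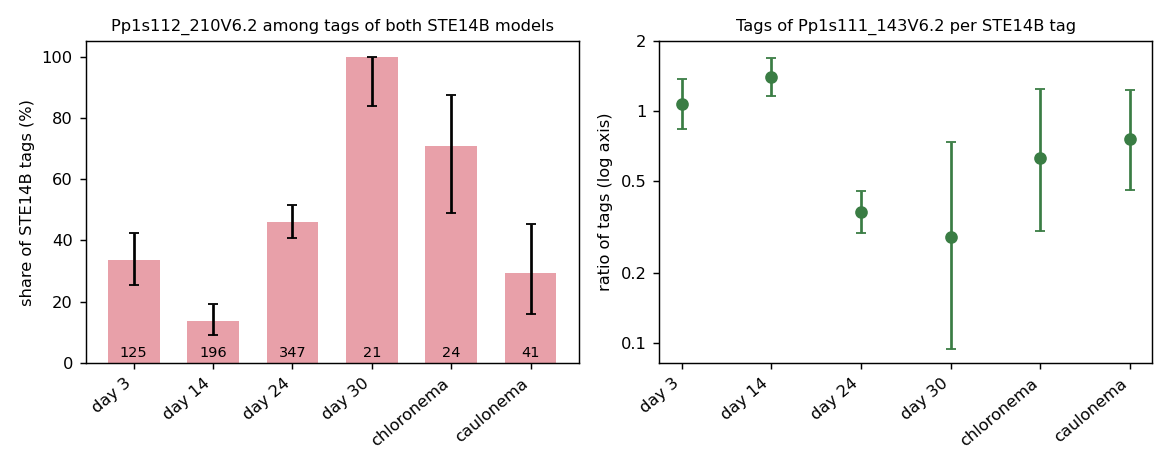
Left, share of Pp1s112_210V6.2 among the tags of both STE14B models in each library (percent, bars from 0, exact 95% intervals, number of STE14B tags at the foot of each bar). Right, tags of Pp1s111_143V6.2 per STE14B tag on a log axis with exact 95% intervals. The share is lowest at day 14, at 13.8%, and the ratio on the right is highest there, at 1.40, and 0.366 at day 24.

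Between the loci the balance moved as well. There were 1.07 tags of Pp1s111_143V6.2 per STE14B tag at day 3, 1.40 at day 14 and 0.366 at day 24, with intervals of 0.834 to 1.38, 1.16 to 1.69 and 0.296 to 0.450. Each transcript gives a tag at 1 site whatever its length, but sites differ in how often they are read, so the ratio is used for its course over the libraries and not as a comparison of the genes' levels. STE14B thus gave the smaller part of the tags of the family at day 14 and the larger part at day 24. The ratio was 0.286 at day 30, 0.625 in chloronema and 0.756 in caulonema, where 21 to 41 STE14B tags left intervals from 0.0944 to 0.732, from 0.305 to 1.24 and from 0.458 to 1.24.

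Chloronema and caulonema were compared to ask which genes differ between the filament types. None of the members had over 100 tags in either, and none was called, where 38.4% of 4292 models were, 21.8% higher and 16.5% lower. By value the STE14B models stood on opposite sides. Pp1s112_210V6.1 was 2.36-fold higher in caulonema (1.01 to 6.39), from 7 and 29 tags, and Pp1s112_210V6.2 2.48-fold lower (1.12 to 5.70), from 17 and 12. Pp1s111_143V6.2 gave 1.18 (0.618 to 2.35), a log2 ratio of 0.24. This log2 ratio was 0.15 with DESeq2 size factors and 0.49 with total gene tags. It was 0.996 with deposited TPM and 0.992 relative to the internal control Pp1s17_377V6.1, so its size depended on the scaling. Summed, STE14B was at 13.7 normalized TPM in chloronema and 13.3 in caulonema, a ratio of 0.975 (0.575 to 1.69). This ratio turned to above 1 with total gene tags and deposited TPM, at log2 ratios of 0.21 and 0.72. Relative to the internal control Pp1s17_377V6.1 the log2 ratio was also 0.72, and with DESeq2 size factors it was -0.13. The scaling matters most here, since the median log2 ratio of all models was 0.13 with TMM, 0.38 with total gene tags and 0.89 with deposited TPM. The 2 STE14B models stayed on opposite sides under every scaling tried, with log2 ratios of 1.15 to 2.00 and -0.55 to -1.40. Intervals of these ratios were computed with TMM only, so a difference of each model beyond counting error was not shown under the other scalings.

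Against whole plants of the same age, both captured types had little of 2 members. Pp1s112_210V6.1 was 7.24-fold lower in chloronema (3.44 to 18.3) and 3.06-fold lower in caulonema (2.06 to 4.71) than at day 14. For Pp1s111_143V6.2 these were 5.48-fold (3.26 to 9.93) and 4.65-fold (3.20 to 6.97). Thus the 2 members that passed the limit of 100 tags were both called lower in each. Among all models that passed it, 38.7% of 6553 were called lower in chloronema and 34.8% of 6917 in caulonema (51.2% and 50.3% in either direction, 12.5% and 15.4% higher). The day 14 level lay over 2-fold above both captured types for 25.9% of 6963 models. Both members passed the limit of 100 tags through day 14 alone, the deeper library, and the limit favours models that were higher there. Without that limit, 40.7% of calls in chloronema and 44.6% in caulonema were higher, against 24.4% and 30.7% with it. The comparisons share the day 14 library, and the captured libraries also differ from it in the capture and the smaller RNA input. By the paper, day 14 plants held both chloronema and caulonema, and for these 2 members day 14 lay above both captured types. The part of the capture and of the RNA input in this was not tested.

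Pp1s112_210V6.2 did not follow. Its 4.62 normalized TPM in whole plants at day 14 lay between the 9.69 of chloronema and the 3.91 of caulonema, with ratios of 2.10 (1.07 to 3.99) and 0.845 (0.390 to 1.73), and it had under 100 tags in all 3 libraries. The caulonema ratio turned to above 1 with total gene tags and deposited TPM, at log2 ratios of 0.29 and 0.10. Over all models the median log2 ratio was -0.54 for chloronema and -0.43 for caulonema. Models read at site 5 or beyond at day 14 had medians of -0.57 and -0.48, and those read at site 1 had -0.46 and -0.36. The part of the distant site in the lower values of Pp1s111_143V6.2 was not tested.

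**Figure D3:**
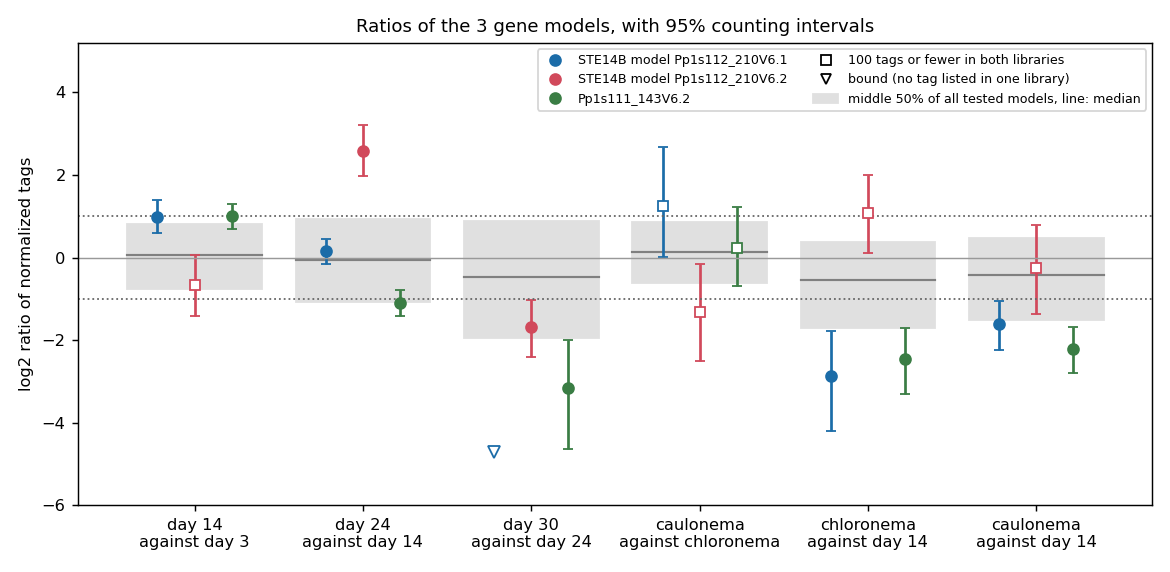
Log2 ratios of normalized tags (TMM scaling) of the 3 gene models in the 6 comparisons, with exact 95% counting intervals. Grey boxes span the middle 50% of all tested models with a line at the median, dotted lines mark 2-fold, open squares are models with 100 tags or fewer in both libraries and the open triangle is a bound. At day 24 against day 14 the members lie at 2.57, 0.15 and -1.11, and at day 30 all 3 lie below -1.

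The course over the libraries was also compared with that of all other models, as Pearson's r of log2(normalized TPM + 1) over 6 libraries that differ in depth and tissue, which describes likeness only. Pp1s112_210V6.1 and Pp1s111_143V6.2 gave r = 0.94, while Pp1s112_210V6.2 gave 0.14 with its partner model and -0.03 with Pp1s111_143V6.2. Of 9002 models with over 100 tags in a library, 339 had r over 0.9 with Pp1s112_210V6.1 and 436 with Pp1s111_143V6.2, but 24 with Pp1s112_210V6.2. Fewer models thus had a course like the peak at day 24 alone than one like that of the other members, high at days 3 to 24 and low elsewhere. Day 30 and the captured libraries also read 77.8% to 80.0% of models at site 1, against 61.4% to 66.5% at days 3, 14 and 24. Outside day 24, Pp1s112_210V6.2 had only 12 to 42 tags. The part of tag site and of counting error in these numbers of models was not tested.

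Nearest to Pp1s112_210V6.1 was Pp1s461_15V6.1, annotated with carboxylesterase activity, which was abundant, with 45934 tags at day 14, 62 at day 30 and r = 0.996. Pp1s178_14V6.1, with no GO term, and Pp1s173_123V6.1, annotated with tryptophan metabolism, followed at 0.995 and 0.992. Beside Pp1s112_210V6.2 stood Pp1s10_124V6.1 and Pp1s302_15V6.1, without GO terms, at 0.983 and 0.973, and Pp1s8_307V6.1, with the term binding alone, at 0.980. Tags of Pp1s10_124V6.1 numbered 16, 13, 115, 10, 10 and 6 from day 3 to caulonema, so that it too was high on day 24 alone. Pp1s111_143V6.2 was most like Pp1s37_111V6.2, with no GO term, at 0.999, then Pp1s475_6V6.3, annotated with binding, at 0.993 and Pp1s76_212V6.2, annotated with transition metal ion binding, at 0.992.

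Prenyl diphosphates are the donors of protein prenylation and also feed other pathways, and 16 listed models had prenyl diphosphate synthase or prenyltransferase terms, some of them with products other than those donors. From day 3 to day 14, 5 of 12 tested were called higher and none lower, beside 20.1% and 20.3% of all models. From day 14 to day 24, 1 was higher and 4 lower of 12, beside 23.2% and 26.4%. At day 30, 3 of 9 were higher and 2 lower, beside 23.2% and 39.4%, with a median log2 ratio of 0.36 where all models had -0.48. Pp1s101_225V6.1, which the study names farnesyl diphosphate synthase FPS2, the enzyme that makes the farnesyl donor, had 130, 195, 182 and 52 tags over the 4 sampling days. It had 215 tags in chloronema and 35 in caulonema, and was 10.8-fold lower in caulonema (7.51 to 15.9). Between the filament types 2 of 5 tested models were called, both lower in caulonema, where 16.5% of all models were called lower, the other being Pp1s3_343V6.1 with 114 and 36 tags, which was also 4.65-fold lower at day 24 than at day 14. FPS2 and the methyltransferase models thus differed in which library was highest, chloronema for the first and days 14 or 24 for the others.

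Pp1s147_6V6.1, of the undecaprenyl pyrophosphate synthetase family, whose products are long prenyl chains, ran from 710 tags at day 3 and 613 at day 24 to 40 at day 30, 8 in chloronema and 22 in caulonema. It was 6.46-fold lower at day 30 than at day 24 (4.69 to 9.13) and 15.9-fold lower in chloronema than at day 14 (7.996 to 37.1). This is the same split of libraries as in 2 of the members. Pp1s34_60V6.1, with the GO function of a geranylgeranyl diphosphate synthase, had the most tags of the list and lay between 53.4 and 148 normalized TPM in all 6 libraries. Pp1s134_62V6.2, with the GO function of a farnesyl diphosphate synthase, was unlisted at day 3 and had 175 tags at day 14, at least 57.0-fold higher. Pp1s196_120V6.2, with the same function, was highest at day 30, with 347 tags against 261 at day 24 (3.16-fold), and Pp1s126_83V6.1, a prenyltransferase by its term, was 3.07-fold higher at day 24 than at day 14.

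Protein prenyltransferases themselves were near the limit of these libraries. Pp1s23_341V6.1, annotated as a protein geranylgeranyl transferase, had 18, 29, 78, 20, 13 and 51 tags from day 3 to caulonema, and Pp1s238_76V6.2, with the term protein prenyltransferase activity, had 16 or fewer in each. Neither reached the 100 tags needed for a call in any comparison. Both models carry the term abscisic acid mediated signalling, as the STE14B models do. Downstream, Pp1s74_108V6.2 is annotated with prenylcysteine metabolism, the breakdown of the modified cysteine that is left when such proteins are degraded. Its levels were 47.1, 21.7, 29.0, 61.9, 2.85 and 10.7 normalized TPM in the same order. It was 2.17-fold lower at day 14 than at day 3 (1.75 to 2.70), where Pp1s112_210V6.1 and Pp1s111_143V6.2 were higher by value, and 2.13-fold higher at day 30 than at day 24 (1.70 to 2.67), where all 3 methyltransferase models were lower. Its 5 tags in chloronema made it 7.62-fold lower than at day 14 (3.18 to 23.9).

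Small GTPases, some of which are anchored by prenyl groups, were also listed, and their list was split by family name after the values had been seen. Rab proteins, which direct vesicle traffic and are geranylgeranylated, were listed as 42 models. At day 24 against day 14, 8 of 30 tested were called higher and 7 lower, beside 23.2% and 26.4% of all models. At day 30, 5 of 27 were higher and 11 lower, beside 23.2% and 39.4%, with a median log2 ratio of -0.75 where all models had -0.48. The shares in both comparisons were near those of all models. Pp1s209_99V6.1, of the Rab11/RabA family, had the most tags, 2791, 2016, 1984 and 49 over the 4 days, 59 in chloronema and 270 in caulonema. It was 17.1-fold lower at day 30 than at day 24 (12.9 to 23.1) and 10.3-fold lower in chloronema than at day 14 (7.91 to 13.5), so that it too was low at day 30 and in the captured cells. Other examples are Pp1s288_43V6.1 of the Rab6/RabH family, 4.20-fold higher at day 24 than at day 14, and Pp1s15_311V6.1 of the Rab18/RabC family, with 238, 230, 25 and 422 tags over the 4 days. Pp1s61_279V6.1, of the Rab7/RabG family, was 3.68-fold lower at day 14 than at day 3. Pp1s218_87V6.2, of the Rab8/RabE family, was 7.37-fold lower in caulonema than in chloronema and 4.14-fold higher in chloronema than at day 14. Both directions were thus filled in every comparison of this group.

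Arf, Arl, Sar1 and ran GTPases are not anchored by prenyl groups, and 32 models of these were listed. Of 17 tested at day 30, 5 were higher and 5 lower, beside 23.2% and 39.4% of all models, with a median log2 ratio of 0.37 where all models had -0.48. The lowest ratio was that of Pp1s3_102V6.1, of the Arf6/ArfB family, with 959, 852 and 1208 tags at days 3, 14 and 24, then 3, 14 and 14. It was 170-fold lower at day 30 than at day 24, with an interval of 57.9 to 824. Pp1s201_41V6.1 and Pp1s67_221V6.1, of the Arf1_5/ArfA family, had the most tags of all small GTPases described here and lay between 266 and 635 and between 239 and 501 normalized TPM. Of 28 regulators, 8 were tested at day 24 against day 14, of which 4 were called higher and 1 lower, beside 23.2% and 26.4% of all models. Pp1s120_129V6.2 was 5.91-fold higher and Pp1s37_113V6.1 10.7-fold lower. The latter was also 2.82-fold higher at day 14 than at day 3. Its annotation holds transaminase activity and lysine biosynthesis beside the regulator terms, so its place among the regulators is uncertain. Pp1s150_22V6.2 was 3.82-fold higher in caulonema than in chloronema, and Pp1s263_81V6.1 4.45-fold higher in caulonema than at day 14.

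**Figure D4:**
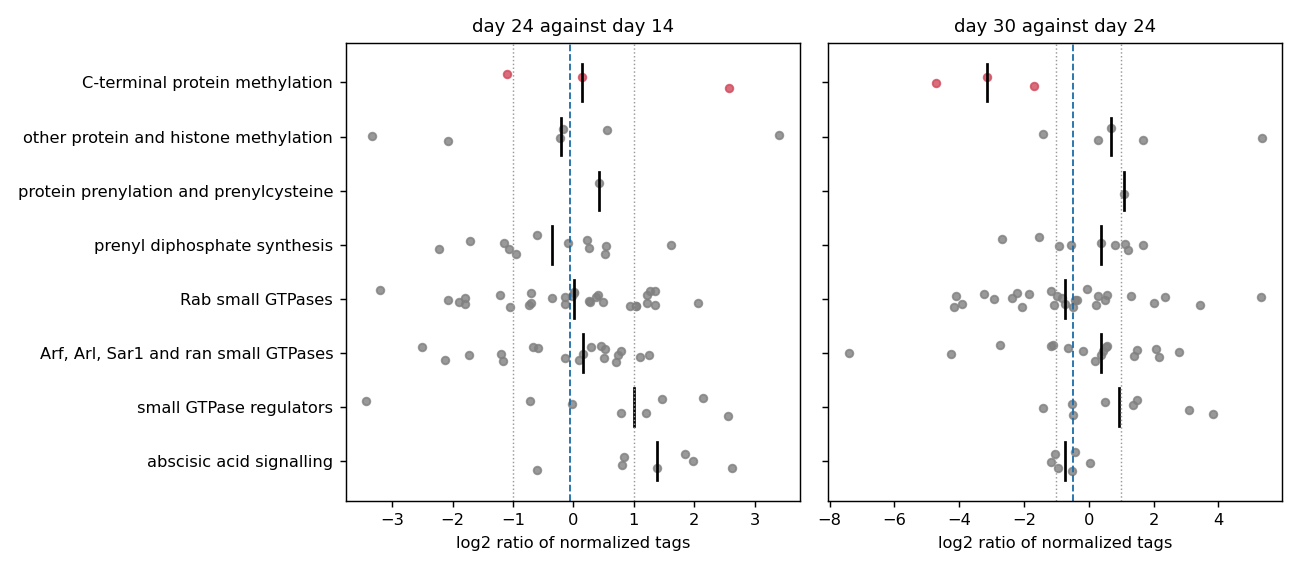
Log2 ratios of normalized tags (TMM scaling) for each tested model of the pathway lists, at day 24 against day 14 and at day 30 against day 24. Points are gene models, with the methyltransferase models in red. Black bars are list medians, the dashed line is the median of all tested models (-0.06 and -0.48) and dotted lines mark 2-fold. The 3 methyltransferase models spread from -1.11 to 2.57 on the left and all lie below -1 on the right.

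Abscisic acid signalling was represented by 26 models other than STE14B, 2 of which are the prenyltransferase models above. At day 24 against day 14, 4 of 7 tested were called higher and none lower, beside 23.2% and 26.4% of all models, with a median log2 ratio of 1.39 where all models had -0.06. Pp1s124_89V6.1, annotated as a small conjugating protein ligase, had 85 tags at day 14 and 521 at day 24, 6.14-fold higher (4.88 to 7.82), and Pp1s317_77V6.1, annotated with response to osmotic stress, had 96 and 378. Like Pp1s112_210V6.2, both were highest at day 24 in normalized TPM. From day 3 to day 14, 2 of 6 were lower and none higher, beside 20.3% lower and 20.1% higher of all models. The lowest was Pp1s223_99V6.1, named CHR4 in the study, of the SNF2 family of DNA-dependent ATPases, at 5.40-fold lower. At day 30, 2 of 6 were lower and none higher, beside 39.4% and 23.2%, among them Pp1s25_284V6.1 at 2.23-fold. In caulonema against day 14, Pp1s317_77V6.1 was 2.30-fold higher. Pp1s72_55V6.1, annotated with protein phosphatase regulator activity, had 117 tags at day 14, 2 in caulonema and none listed in chloronema, where it was 11.7-fold lower against the floor of 3 tags.

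Other models annotated with protein or histone methylation, which concerns lysines or other side chains and not the C-terminus, numbered 28, of which 5 to 8 were tested between days. Between days they did not move one way. From day 3 to day 14, 1 of 8 was called higher and 2 lower, beside 20.1% and 20.3% of all models. At day 24 against day 14, 1 of 6 was higher and 2 lower, beside 23.2% and 26.4%. At day 30, 2 of 5 were higher and 1 lower, beside 23.2% and 39.4%. Pp1s22_260V6.1, VIP3 in the study, which in Arabidopsis belongs to a complex that aids histone methylation and is no methyltransferase, had 646, 771, 76 and 1294 tags over the 4 days, 10.1-fold lower at day 24 than at day 14 and 40.4-fold higher at day 30 than at day 24, the reverse of Pp1s112_210V6.2 at both steps. Pp1s183_22V6.2, annotated with histone-lysine N-methyltransferase activity, had 57, 12, 127 and 20 tags over the 4 days, the same direction as Pp1s112_210V6.2 at both. Pp1s67_56V6.1, ATX1 in the study, was 5.06-fold higher at day 14 than at day 3, and Pp1s523_9V6.1 2.27-fold lower. Against day 14 the calls in the captured cells were all lower. In chloronema 3 of 5 tested were lower, among them VIP3 at 2.63-fold, beside 38.7% of all models. In caulonema 1 of 5 was lower, Pp1s55_32V6.1 at 3.18-fold, beside 34.8%. The limit of 100 tags favours models that were higher in the deeper day 14 library here too. Pp1s106_39V6.1 had the most tags of the list and lay between 472 and 1244 normalized TPM in all libraries.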

How the data were processed

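Per the study's methods, the authors cut cDNA with NlaIII, sequenced 21-nt tags, removed single-copy tags, matched the rest to Phytozome v7.0 gene models with at most 1 mismatch and discarded tags of several genes. The paper names blastn and the submitters' processing notes Bowtie. The deposited values were tag counts per model and TPM, which the authors made by dividing counts by library size. Each model had 1 tag and site per library. A model not listed was set to 0 tags, with a floor of 3.

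Libraries were scaled by TMM (edgeR 4.0.16, R 4.3.3). Levels have exact Poisson and ratios exact binomial 95% intervals (scipy 1.17.1, Python 3.11.15). With 1 library per condition edgeR's test could not be fitted, and a call is over 2-fold and over 100 tags in a library. Alternative scalings were by DESeq2 1.42.0 size factors, total gene tags, deposited TPM and an internal control gene, and other alternatives 4-fold, no tag filter, over 100 tags together, the floor at 1 tag and, for list medians, over 10 tags or the same tag position in both libraries. Members, lists and rules were chosen with earlier results of these data known. Named genes were the members, from each list the 2 with most tags and the called model with the highest and lowest ratio per comparison, the 3 models most like each member, and the control genes. Pp1s238_76V6.2, Pp1s209_99V6.1 and Pp1s288_43V6.1 fall outside it and were named after their values were seen. Some models of the small GTPase list are not reported here. No member matched the RefSeq gene table of assembly ASM5946719v1, so no coordinates are given.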

Additional observations from a re-analysis of the deposited data

How the results depend on the processing

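No paired analysis was possible because each condition had 1 library and the labels carry no replicate numbers shared between conditions, so leaving out a replicate could not be done either. Of 24 ratios of members and of summed STE14B in the 6 comparisons, 87 of 89 values under alternatives stayed within the counting interval or 1.5-fold of the bound. The 2 exceptions were the log2 ratio of Pp1s112_210V6.1 at day 30 against day 24, -4.72 with the floor of 3 tags and -6.30 with the unlisted model at 1 tag, which follows from the floor, and summed STE14B in caulonema against day 14, -1.33 with TMM and -0.80 with total gene tags. None of the ratios called changed sign. Of members called at day 24 against day 14, 2 became 1 with a 4-fold limit and 1 with total gene tags. At day 30 against day 24, 3 became 2 at 4-fold. In caulonema against day 14, 2 became 1 at 4-fold, in chloronema against day 14, 2 became 3 with no tag filter, 1 higher and 2 lower, and in caulonema against chloronema, 0 became 2 with no tag filter, 1 higher and 1 lower. Over all models the calls in the 6 comparisons, in the order day 14 against 3, day 24 against 14, day 30 against 24, caulonema against chloronema and chloronema and caulonema against day 14, were 3112, 3920, 4545, 1646, 3352 and 3476, with a 4-fold limit 1142, 1378, 2694, 429, 1595 and 1557, and with no filter 6902, 8523, 9507, 4979, 7172 and 7744. Calls that were higher were 46.7% of calls at day 24 against day 14 and 58.0% with total gene tags. In caulonema against chloronema they were 56.9%, 70.0% with total gene tags and 88.2% with deposited TPM. For chloronema against day 14 they were 24.4%, 34.8% with total gene tags, 13.1% with deposited TPM and 40.7% with no filter. For caulonema against day 14 they were 30.7%, 50.4% with total gene tags, 43.0% with deposited TPM and 44.6% with no filter. List medians rested on few models and some moved once models with over 10 tags were let in. For other protein methylation they went from -0.20 over 6 models to 0.70 over 17 at day 24 against day 14, from 0.67 over 5 to -0.06 over 17 at day 30, from -1.11 over 5 to -0.27 over 16 in chloronema against day 14, and from -0.56 to -0.02 over 16 in caulonema against day 14. For prenyl diphosphate synthesis the median went from -0.39 over 5 to 0.65 over 13 in caulonema against chloronema. For abscisic acid signalling it went from 0.70 over 2 to 1.05 over 12 in that comparison, and from -1.73 over 2 to -0.16 over 16 in chloronema against day 14, where the 1 model with the same tag position gave 0.10. For small GTPase regulators it was 0.60 over 20 at day 24, and 0.38 over the 6 with the same tag position, and it went from 0.94 over 8 to 0.33 over 20 at day 30. Medians of Rab models, and of Arf, Arl, Sar1 and ran models, changed sign in 6 cases, between values of -0.15 and 0.16. Depth limits the captured cells and day 30 most, where the members had at most 31 tags.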
